A study of Homo sapiens with 12 samples.

Results

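Kelly cells, a human neuroblastoma line with an amplified MYCN gene, were sequenced before and after induction of a short hairpin RNA (shRNA) against RCOR2, and 4 of the 12 libraries of the series make up this comparison. They are 2 libraries of induced shRCOR2 cells, given 2 µg/mL doxycycline, and 2 of untreated shRCOR2 cells, chosen by their titles. Expression was read as TPM, the share of transcripts a gene takes, summed per gene identifier, and a change is the log2(TPM + 1) of induced minus that of untreated cells, which understates the change of sparse genes. The other 8 libraries, 2 each, come from Kelly cells that carry a hairpin against RCOR1 (shRCOR1) or a control hairpin (shCTRL), each induced at the same dose or untreated. All cells grew in serum-containing RPMI medium. The titles and the time label give 72 h of treatment and the treatment protocol gives 24 or 48 h, so the length of induction is uncertain. The labels name 1 shRNA line per target, so loss of RCOR2 and any other effect of that hairpin cannot be told apart. They do not say whether replicates were separate cultures, so p-values measure only the spread between these libraries. Genes of the p53, glycolysis and sterol pathways are not described here.

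RCOR2 encodes a CoREST scaffold protein, which holds the histone demethylase KDM1A (LSD1) and the deacetylases HDAC1 and HDAC2 together on chromatin. Transcription factors such as REST recruit the complex, where it removes active histone marks and represses neuronal genes in cells that are not neurons. Adrenergic neuroblastoma cells resemble precursors of sympathetic neurons and carry their own set of neuronal transcription factors, among them HAND2, GATA3 and ISL1.

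Library quality was alike across the comparison. Between 14908 and 15720 genes reached a TPM of 1 in the 4 shRCOR2 libraries, and mitochondrial transcripts took 14.9% to 20.3% of TPM. Relative depth, from the ratio of coverage to FPKM, was 1.51 to 2.099 times that of the shallowest library of the series. Replicates correlated across genes at 0.990 in induced and 0.986 in untreated shRCOR2 cells. All 10 adrenergic markers reached a TPM of 1 in every library, and of 14 markers of other cell types CDH1, KRT5 and CD3E were listed at 0 in all 12. Others of the 14 were present: over the 12 libraries PDGFRB ranged over 10.6 to 40.1 TPM, COL1A1 over 6.43 to 87.3 TPM and COL3A1 over 1.33 to 25.3 TPM, and EPCAM and PRRX1 reached 4.13 and 10.7 TPM. The files hold no read counts, so no counting interval is given. Untreated shRCOR2 against untreated shCTRL cells had 0 calls by limma at an adjusted p below 0.05, with 68 genes higher and 55 lower at an unadjusted p below 0.05, and 0 calls with replicate number as a block.

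The targeted transcript fell by 1.42 on the log2 scale. RCOR2 (ENSG00000167771.6, chromosome 11, 63911230 to 63917164, GRCh38/hg38) stood at 17.7 and 20.5 TPM in induced shRCOR2 cells, against 55.4 and 49.9 TPM in untreated ones. The groups did not overlap, and the change was −1.42 ± 0.11 (SE; limma adjusted p = 0.000403), or −1.24 ± 0.16 relative to the change in shCTRL cells (limma adjusted p = 0.0129), a call made in 4 of the 8 fits without 1 library. Its relative RCOR1, the scaffold of the best-studied CoREST complex, stood at 9.29 and 9.92 TPM in induced against 9.81 and 9.32 TPM in untreated shRCOR2 cells and was not called (0.01 ± 0.12, limma adjusted p = 0.983). RCOR3, the third family member, stood at 46.0 and 49.4 TPM in induced against 41.4 and 43.6 TPM in untreated cells and was not called either (0.16 ± 0.21, limma adjusted p = 0.661). RCOR2 also fell in the shRCOR1 line, to 26.0 and 26.3 TPM in induced against 51.4 and 50.5 TPM in untreated cells (limma adjusted p = 0.00278). The 2 falls of RCOR2 did not differ past the threshold (−0.48 for the shRCOR2 change minus the shRCOR1 change, limma adjusted p = 0.0938), except with the replicate block (0.0339).

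Across all genes, limma called 1316 rises (7.81% of the 16842 genes tested) and 1090 falls (6.47%) in shRCOR2 cells, of which 230 rises and 246 falls were at least 2-fold. With replicate number as a block, which the libraries support because same-numbered libraries deviated together, 3611 genes rose (21.4%) and 2489 fell (14.8%). Every called gene moved in its called direction in both replicate numbers, which a call from 2 libraries per group nearly requires. Of all 16842 genes tested, 8085 rose and 5712 fell in both numbers, so this is no separate support. The balance between directions depended on the setting: rises were 54.7% of the calls with TPM, 68.2% with the deposited FPKM and 45.7% with median-of-ratios scaling (1079 rises and 1283 falls). Fewer genes were called when 1 of the 4 libraries was left out: 493 without induced replicate 1, 654 without induced replicate 2, 744 without untreated replicate 1 and 583 without untreated replicate 2. Rises were 37.5% to 47% of these calls. In all 4 of these leave-one-out fits 142 rises and 264 falls were called. The leave-one-out fits here and below used no block, so the replicate numbers were not balanced between induced and untreated cells in them. A lost call can therefore also reflect that imbalance, which was not tested. In shCTRL cells the limma test on all libraries gave 0 calls (10 with the block), with 300 genes higher and 638 lower at an unadjusted p below 0.05. Relative to the shCTRL change, 150 genes were higher (0.891%) and 202 lower (1.2%), or 1504 and 977 with the block. Those 352 calls became 321 without induced shCTRL replicate 1 and 19 to 151 without any other of the 8 libraries, and 8 when only the 4 groups compared were fitted. Higher genes were 42.6% of those calls with TPM and 27.8% with median-of-ratios scaling.

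Among the called falls, 69 genes fell by more than RCOR2 itself. STMN1 (chromosome 1, 25884181 to 25906991), which encodes the tubulin-binding protein stathmin, stood at 127 and 108 TPM in induced shRCOR2 cells, against 835 and 692 TPM in untreated ones. Induced libraries of the shRCOR1 and shCTRL lines held between 435 and 767 TPM, so only the induced shRCOR2 libraries lay low among the 12. Its change was −2.69 ± 0.29 (limma adjusted p = 0.0014), and −2.46 ± 0.41 relative to shCTRL (limma adjusted p = 0.028). TXNRD1 (chromosome 12, 104215779 to 104350307), for the cytosolic thioredoxin reductase that keeps thioredoxin reduced, stood at 32.6 and 30.8 TPM in induced against 222 and 187 TPM in untreated shRCOR2 cells. That is a change of −2.65 ± 0.13 (limma adjusted p = 0.000108), with the groups far apart. ACTB (chromosome 7, 5526409 to 5563902), the beta-actin gene often used to scale expression, stood at 487 and 493 TPM in induced against 1901 and 1670.5 TPM in untreated shRCOR2 cells. Its change was −1.86 ± 0.14 (limma adjusted p = 0.000336), whereas in shRCOR1 cells it stood at 2456 and 2375 TPM induced against 1678 and 1766 TPM untreated.

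The other named falls encode proteins of several compartments. ANP32E, a chaperone that removes the histone variant H2A.Z from chromatin, stood at 74.6 and 70.2 TPM in induced against 383 and 318 TPM in untreated shRCOR2 cells (−2.26 ± 0.19, limma adjusted p = 0.000476). COX7A2L, which joins respiratory complexes into supercomplexes, stood at 22.0 and 20.7 TPM in induced against 112 and 97.7 TPM in untreated cells (−2.24 ± 0.12). MZT1, a small component of gamma-tubulin complexes, stood at 14.0 and 13.1 TPM in induced against 63.1 and 51.2 TPM in untreated cells (−1.99 ± 0.15). All 3 genes had no overlap between the groups and kept their calls in all 4 leave-one-out fits. HSPB1, the small heat shock protein HSP27, stood at 91.4 and 83.7 TPM in induced against 348 and 337 TPM in untreated cells (−1.96 ± 0.14). PPT1, a lysosomal thioesterase that takes palmitate off proteins, stood at 25.9 and 25.8 TPM in induced against 104 and 93.6 TPM in untreated cells (−1.89 ± 0.09). The list ended with C4orf3, a small membrane protein gene (−1.81 ± 0.13), and AMMECR1, an X-linked gene (2.76 and 2.86 TPM in induced against 12.01 and 12.4 TPM in untreated cells, −1.79 ± 0.13). The limma adjusted p of these last 4 genes lay between 0.000108 and 0.000289, and all were also called relative to shCTRL, as the rule that chose them required. Those calls were less stable: of the 8 fits without 1 library of either line, TXNRD1, COX7A2L, MZT1 and PPT1 were called lower than shCTRL in all 8, C4orf3 in 6, and STMN1, ANP32E, HSPB1, ACTB and AMMECR1 in 2 or 3.

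The 10 named largest rises began with a neuropeptide gene. VIP (chromosome 6, 152750797 to 152759765), the gene of vasoactive intestinal peptide, stood at 8.61 and 9.44 TPM in induced against 0.848 and 0.613 TPM in untreated shRCOR2 cells. It moved likewise in shRCOR1 cells, to 5.71 and 7.87 TPM in induced against 0.716 and 0.376 TPM in untreated cells, and the changes of the 2 lines did not differ past the threshold (0.21, limma adjusted p = 0.753). In shCTRL cells VIP stayed below 0.6 TPM in every library, and the shRCOR2 change of 2.54 ± 0.23 had a limma adjusted p of 0.00062. DKK1 (chromosome 10, 52314281 to 52318042), a secreted inhibitor of Wnt signalling, stood at 159 and 134 TPM in induced against 34.4 and 27.7 TPM in untreated shRCOR2 cells (2.21 ± 0.23, limma adjusted p = 0.00102). It rose more in shRCOR1 cells, by a difference of −1.52 (shRCOR2 minus shRCOR1, limma adjusted p = 0.0195). PRKG1-AS1, a non-coding gene that overlaps DKK1 on the opposite strand, stood at 6.76 and 6.34 TPM in induced against 1.29 and 1.06 TPM in untreated cells (1.80 ± 0.18). Since the strand setting of the quantification is not given, reads of the 2 genes may be mixed.

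PLXNB3, a plexin that receives semaphorin signals at the growth cone, stood at 9.89 and 8.39 TPM in induced against 0.857 and 1.26 TPM in untreated shRCOR2 cells (2.30 ± 0.29, limma adjusted p = 0.00237). In contrast to VIP and DKK1, PLXNB3 did not pass the test in shRCOR1 cells (0.630 and 1.55 TPM induced, 0.698 and 1.29 TPM untreated), and the 2 changes differed by 2.26 (limma adjusted p = 0.0112). PTPRR, a receptor phosphatase that acts on MAP kinases, stood at 12.5 and 8.45 TPM in induced against 1.66 and 1.29 TPM in untreated cells (2.196 ± 0.21). Its change also differed from that in shRCOR1 cells (1.83, limma adjusted p = 0.00811). NT5E, the cell surface enzyme CD73 that makes adenosine, stood at 4.45 and 6.06 TPM in induced against 0.841 and 0.904 TPM in untreated cells (1.73 ± 0.19). In shRCOR1 cells NT5E stood at 0.0830 and 0.422 TPM induced and 0.739 and 0.695 TPM untreated, so the 2 lines lay on opposite sides of 0, with a difference of 2.197 (limma adjusted p = 0.00328). STYXL1, a phosphatase relative without catalytic activity, stood at 73.3 and 64.5 TPM in induced against 18.3 and 18.6 TPM in untreated cells (1.84 ± 0.18). All of these rises kept their calls against untreated cells in the 4 leave-one-out fits. The remaining named rises were the zinc finger gene ZNF433 (9.62 and 6.75 TPM in induced against 1.56 and 1.52 TPM in untreated cells, 1.84 ± 0.20), the non-coding gene AC005746.2 (2.01 ± 0.18) and MT-TD, the mitochondrial tRNA for aspartate (202 and 294 TPM in induced against 61.7 and 54.2 TPM in untreated cells, 2.05 ± 0.26). Relative to shCTRL, the 10 named rises were called in 0 (ZNF433) to 3 (VIP and PTPRR) of the 8 leave-one-out fits.

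**Figure D1:**
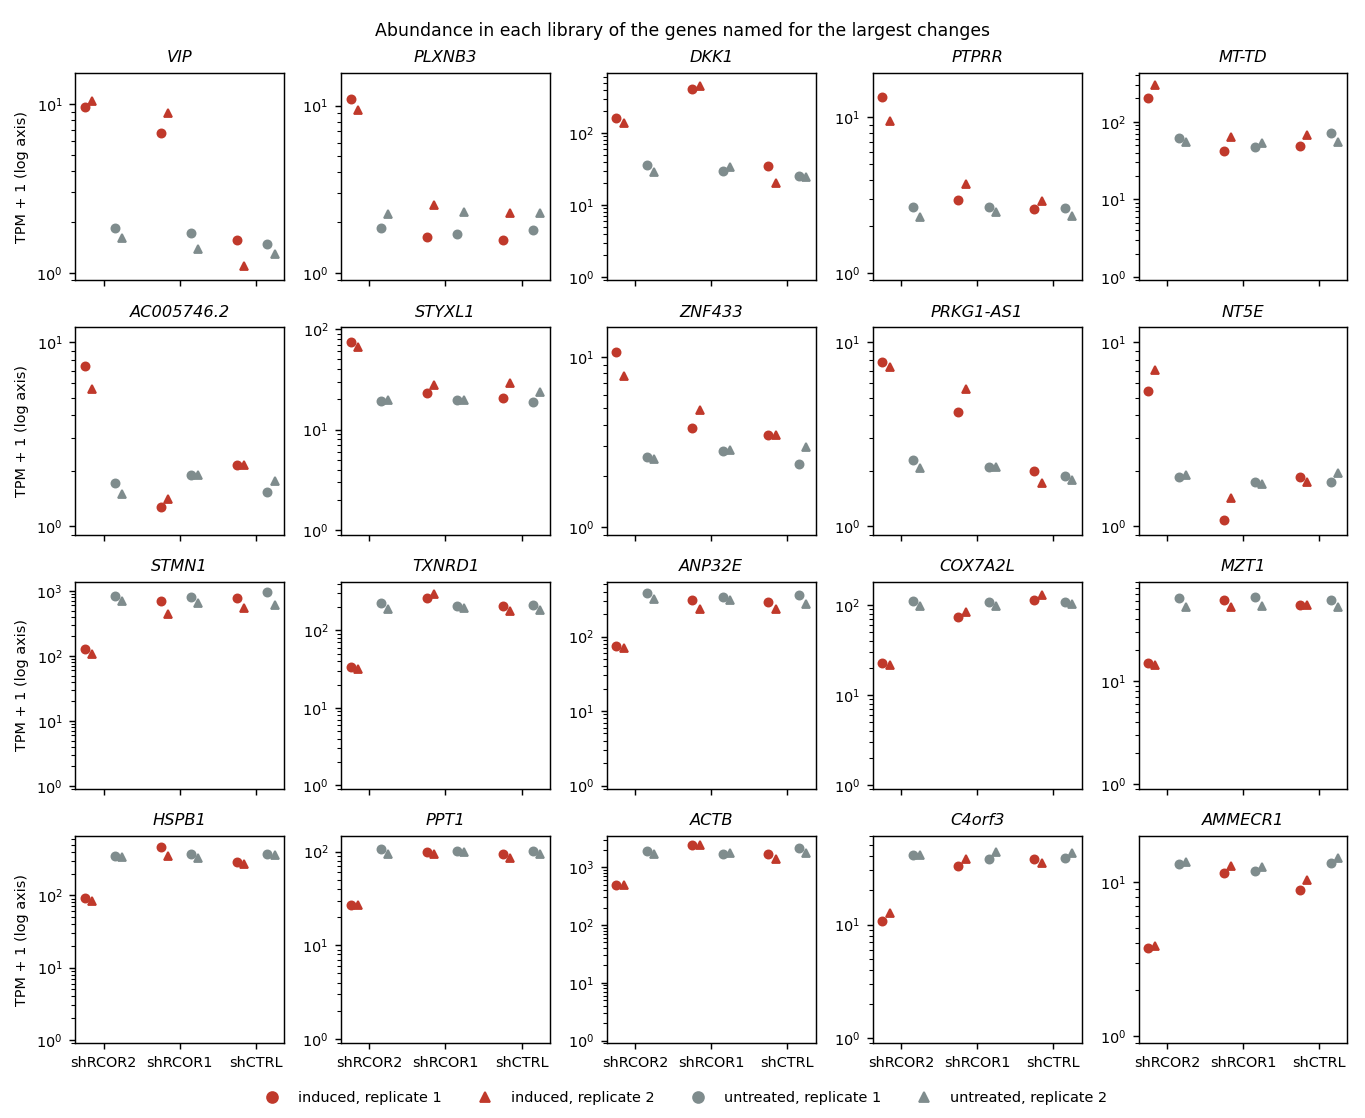
Abundance in each library of the 10 rises and 10 falls named for the largest changes; the vertical axis is TPM + 1 on a log scale, red symbols are induced and grey symbols untreated libraries, and circles and triangles are replicates 1 and 2. The 20 genes were chosen for calls in shRCOR2 cells and relative to shCTRL. That induced and untreated shRCOR2 libraries stand apart in all 20 panels therefore follows from the choice. Induced and untreated shCTRL libraries lie close together, which the choice also favours. In VIP, DKK1 and PRKG1-AS1 the induced shRCOR1 libraries are high as well.

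EEF2, the elongation factor that moves the ribosome along, stood at 3611 and 4177 TPM in induced against 2429.9 and 2590.5 TPM in untreated shRCOR2 cells (0.63 ± 0.13, limma adjusted p = 0.0176), the largest gain in TPM among the named genes. The ribosomal protein genes RPL5 (0.48 ± 0.12) and RPL11 (0.45 ± 0.11) and the ribosomal scaffold gene RACK1 (0.41 ± 0.11) rose in the same range, and so did MT-TL1, a mitochondrial leucine tRNA (2652 and 2998 TPM in induced against 1675 and 1283 TPM in untreated cells, 0.94 ± 0.20). In the leave-one-out fits EEF2, RPL5, RPL11 and RACK1 were not called, with limma adjusted p between 0.0597 and 0.213, and MT-TL1 was called only without untreated replicate 1 (0.0423). Of these gains, MT-TL1 alone was called relative to shCTRL (1.51 ± 0.29, limma adjusted p = 0.0407), joined by EEF2 with the replicate block (0.0396). As a family counted after these values were seen, 80 ribosomal protein genes had 4 rises and 2 falls, or 60 and 6 with the replicate block. Over all genes 7.81% rose and 6.47% fell, or 21.4% and 14.8% with the block. The median change of the 80 genes was 0.34 in the shRCOR2 line, 0.19 in shRCOR1 cells and 0.22 in shCTRL cells. RPS2 went against its family: it stood at 2953 and 2447 TPM in induced against 5542 and 5114 TPM in untreated shRCOR2 cells (−0.99 ± 0.16, limma adjusted p = 0.0062), and its limma adjusted p was 0.0569 without induced replicate 2.

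MYCN, the amplified transcription factor gene that drives this tumour type, stood at 1269 and 1042 TPM in induced against 3019.9 and 2677 TPM in untreated shRCOR2 cells. The groups did not overlap (−1.31 ± 0.31, limma adjusted p = 0.0269). Without any 1 of the 4 libraries the limma adjusted p was between 0.101 and 0.153. Relative to shCTRL MYCN was not called (−1.06 ± 0.44, limma adjusted p = 0.259, or 0.0629 with the replicate block). CHGA, for the secretory granule protein chromogranin A, stood at 1376 and 1492 TPM in induced against 2854 and 2807 TPM in untreated cells (−0.98 ± 0.28, limma adjusted p = 0.0487). That call ended without any 1 library (0.159 to 0.203), and relative to shCTRL it was not made (−0.45 ± 0.39, limma adjusted p = 0.658), with changes of −0.54 in shCTRL and −1.55 in shRCOR1 cells. RGS4, a regulator of G protein signalling, stood at 396 and 781 TPM in induced against 1339.8 and 1559.6 TPM in untreated cells (−1.38 ± 0.33, limma adjusted p = 0.0268). It was called in the leave-one-out fits only without induced replicate 2 (0.0231; otherwise 0.0939 to 0.155). UCHL1, a neuronal deubiquitinating enzyme, stood at 280.3 and 280.2 TPM in induced against 927 and 959.7 TPM in untreated cells and kept its call in all 4 (−1.75 ± 0.20, limma adjusted p = 0.00165). MT-RNR1, the mitochondrial 12S ribosomal RNA, was uneven between replicates, with 2195 and 3076 TPM in induced against 3946 and 8125 TPM in untreated cells (−1.12 ± 0.31, limma adjusted p = 0.0428). Its call held without untreated replicate 1 (0.016) and ended without any other library (0.0908 to 0.232).

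Cytoskeletal genes mostly fell when they moved. Of 36 microtubule genes tested 2 rose and 8 fell (2 and 16 with the replicate block). Over all genes 7.81% rose and 6.47% fell, or 21.4% and 14.8% with the block, and all list counts below stand beside these shares. The median of the microtubule list was −0.20, beside 0.07 over all genes and −0.11 for this list in shCTRL cells. Besides STMN1 and MZT1, MZT2B, another gamma-tubulin complex component, stood at 30.1 and 22.6 TPM in induced against 82.7 and 73.4 TPM in untreated cells (−1.54 ± 0.17). The tubulin genes TUBA1C (−1.28), TUBB6 (−0.77) and TUBB2B (−0.76) fell as well. The rises were STMN4, a neuronal stathmin, and MAPRE3, which binds growing microtubule ends (0.89 ± 0.18 and 0.69 ± 0.17). Of 37 actin genes 2 rose and 9 fell (5 and 11 with the block), and their median was −0.06 in this line, 0.36 in shRCOR1 cells and −0.10 in shCTRL cells. TAGLN2, an actin-bundling protein, stood at 60.0 and 49.1 TPM in induced against 196 and 181 TPM in untreated shRCOR2 cells (−1.78 ± 0.14). ACTN1 (alpha-actinin, −1.56), MSN (moesin, −1.27), EZR (ezrin, −0.59) and RDX (radixin, −0.59), which tie actin to itself or to the membrane, also fell. ACTA2, smooth muscle actin, went the other way, with 18.8 and 17.1 TPM in induced against 1.59 and 1.98 TPM in untreated cells (2.77 ± 0.40, limma adjusted p = 0.0041). Relative to shCTRL, ACTA2 was called only with the block (limma adjusted p = 0.00832, against 0.0963 without it), and it overlaps FAS, which also rose, on the opposite strand. ACTG1, the second cytoplasmic actin, stood at 2411 and 2359 TPM in induced against 1653 and 1536 TPM in untreated cells (0.58 ± 0.13), the opposite direction to ACTB. STMN4, MAPRE3 and ACTG1 were not called without any 1 of the 4 libraries (limma adjusted p 0.0578 to 0.176), whereas MZT2B, TAGLN2 and ACTA2 kept their calls.

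Stress defence genes fell more often than they rose. Of 32 antioxidant genes 2 rose and 8 fell (6 and 16 with the block), at a median of −0.33, beside −0.03 in shRCOR1 cells and −0.04 in shCTRL cells. SRXN1, sulfiredoxin, which repairs peroxiredoxins, stood at 9.29 and 9.05 TPM in induced against 35.4 and 32.2 TPM in untreated cells (−1.77 ± 0.13). CAT, catalase, stood at 7.84 and 9.22 TPM in induced against 26.1 and 25.2 TPM in untreated cells (−1.49 ± 0.16). GSR, glutathione reductase, fell by 1.02 on the log2 scale. These 3 genes and TXNRD1 were also called lower relative to shCTRL. TXNIP, the inhibitor of thioredoxin, rose (164 and 175 TPM in induced against 78.2 and 71.2 TPM in untreated cells, 1.17 ± 0.19, limma adjusted p = 0.00664). Its adjusted p was 0.054 without induced replicate 2 and 0.0562 without untreated replicate 2. Of 27 chaperone genes 0 rose and 8 fell (20 with the block), and 26 of the 27 had a change below 0. Over all genes, 7189 of the 16842 tested had a change below 0. CCT8, a subunit of the chaperonin that folds actin and tubulin, stood at 189.9 and 185 TPM in induced against 410.0 and 393 TPM in untreated cells (−1.09 ± 0.08, limma adjusted p = 0.000336). BAG3, a co-chaperone of HSP70, stood at 7.78 and 9.01 TPM in induced against 26.2 and 28.9 TPM in untreated cells (−1.60 ± 0.15). The chaperone median was −0.40, beside 0.34 in shRCOR1 cells and −0.21 in shCTRL cells. Among 31 proteasome genes only PSMC1, a subunit of the regulatory cap, fell (−1.005 ± 0.23, limma adjusted p = 0.0221), and that call ended without any 1 library (0.0736 to 0.131). With the block 18 fell, and the list's median was −0.29 beside −0.26 in shCTRL cells.

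Chromatin and RNA-binding genes held some large falls. Of 33 histone chaperone and nucleosome genes 2 rose and 6 fell (3 and 12 with the block; median −0.21, and −0.14 in shCTRL cells). After ANP32E came HMGB2, a DNA-bending protein (112 and 84.3 TPM in induced against 356 and 248 TPM in untreated cells, −1.60 ± 0.36), H2AZ2, an H2A.Z gene (−1.14 ± 0.19), and HMGN1 (−1.13). The HMGB2 call ended without any 1 library, at limma adjusted p from 0.066 to 0.136. In the list of HDAC deacetylases, KDM1A (LSD1) and KDM1B 1 of 13 rose and 2 fell, or 3 and 3 with the block. HDAC2, a catalytic subunit of the CoREST complex, stood at 55.6 and 70.9 TPM in induced against 144 and 138 TPM in untreated cells (−1.16 ± 0.12, limma adjusted p = 0.00128; −1.13 ± 0.17 relative to shCTRL, limma adjusted p = 0.0241). HDAC8 rose (0.37 ± 0.10) and HDAC9 fell (−0.83 ± 0.21), neither called relative to shCTRL, except with the block (limma adjusted p 0.0341 and 0.0464). The splicing list had 1 rise and 2 falls of 34 (1 and 14 with the block; median −0.24, and −0.22 in shCTRL cells). HNRNPR, an RNA-binding protein, stood at 76.5 and 89.2 TPM in induced against 377 and 214 TPM in untreated cells (−1.77 ± 0.25). HNRNPA0, of the same family, stood at 26.4 and 24.5 TPM in induced against 86.7 and 73.3 TPM in untreated cells (−1.61 ± 0.18), and TRA2A, a splicing activator, rose (0.67 ± 0.11). Of 13 genes of the small RNA machinery 0 rose and 2 fell, PRKRA, a partner of DICER1 (−0.85 ± 0.11), and XPO5, the exporter of precursor miRNAs (−0.37 ± 0.10), while with the block 6 rose and 2 fell. Without 1 of the 4 libraries HDAC2, HNRNPR, HNRNPA0 and PRKRA kept their calls in every fit, HDAC8, HDAC9 and XPO5 in none (limma adjusted p 0.0967 to 0.219), and H2AZ2 and TRA2A in some.

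Metabolic and biosynthetic lists divided. Of 40 translation factors 5 rose and 5 fell, or 15 and 9 with the block. EIF4E, which binds the mRNA cap, stood at 9.35 and 9.95 TPM in induced against 26.8 and 27.3 TPM in untreated cells (−1.40 ± 0.13, limma adjusted p = 0.000857), and EIF4G1 (−0.80), its scaffold partner, fell as well. EIF1, which guards start codon choice, rose (1108 and 1031 TPM in induced against 683 and 617.9 TPM in untreated cells, 0.72 ± 0.12). EIF1 moved by a similar amount in shCTRL cells (0.56) and the difference was not called (0.16 ± 0.17, limma adjusted p = 0.735). Of 20 tRNA synthetases 4 rose and 1 fell (7 and 1 with the block), led by YARS1 (0.88 ± 0.14), CARS1 (0.88 ± 0.16) and GARS1 (0.86 ± 0.20). Their median was 0.14, beside 0.33 in shCTRL cells. PHGDH, the first enzyme of serine synthesis, likewise rose by 0.63 ± 0.12 and stood 0.58 higher in induced than in untreated shCTRL cells. Purine and pyrimidine synthesis genes that moved fell. They were PRPS2 (16.5 and 16.1 TPM in induced against 33.4 and 34.9 TPM in untreated cells, −1.02 ± 0.10), PPAT (−0.70 ± 0.08), PRPS1 (−0.68 ± 0.15), PAICS (−0.61) and CAD (−0.42). With PHGDH they were the 5 falls and 1 rise of 28 nucleotide and one-carbon genes (3 rises and 14 falls with the block; median −0.32, and −0.09 in shCTRL cells). AZIN1, which protects the polyamine enzyme ODC1 from degradation, stood at 36.0 and 36.6 TPM in induced against 103 and 103 TPM in untreated cells (−1.48 ± 0.10). With AMD1 (−0.47 ± 0.11) it made up the 2 falls beside 0 rises of 10 polyamine genes (3 and 1 with the block). Cytochrome oxidase genes had 1 rise, the assembly factor SURF1 (0.60 ± 0.11), and 2 falls, COX7A2L and COX6C (−1.41 ± 0.17), of 28, or 6 and 5 with the block, and their median of 0.06 turned to −0.02 with median-of-ratios scaling. Without 1 of the 4 libraries EIF4E, PRPS2, PPAT, AZIN1 and COX6C kept their calls in every fit, GARS1, PRPS1 and AMD1 in none (limma adjusted p 0.0554 to 0.16), and EIF1, YARS1, CARS1, PHGDH and SURF1 in some.

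Of 33 lysosome and autophagy genes 7 rose and 2 fell (11 and 10 with the block; median 0.16, and 0.08 in shCTRL cells). Among the rises were 2 transcription factors that switch on lysosomal genes, TFEB (11.8 and 11.8 TPM in induced against 5.69 and 5.94 TPM in untreated cells, 0.91 ± 0.15, limma adjusted p = 0.00694) and TFE3 (0.70 ± 0.19, limma adjusted p = 0.0418). The autophagy genes ATG7 (0.63 ± 0.14), BECN1 (0.56) and GABARAP (0.41), the proton pump gene ATP6V1H (0.50) and the lysosomal channel gene MCOLN1 (0.46) rose too. Without 1 of the 4 libraries TFEB had limma adjusted p between 0.0497 and 0.0597, TFE3 lost its call (0.129 to 0.191) and ATG7 kept it only without untreated replicate 1 (0.0418). The falls were PPT1 and CTSB, the protease cathepsin B (12.2 and 12.3 TPM in induced against 29.6 and 28.8 TPM in untreated cells, −1.19 ± 0.18). CTSB rose in shRCOR1 cells, and the changes of the 2 lines differed by −2.30 (limma adjusted p = 0.00237).

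**Figure D2:**
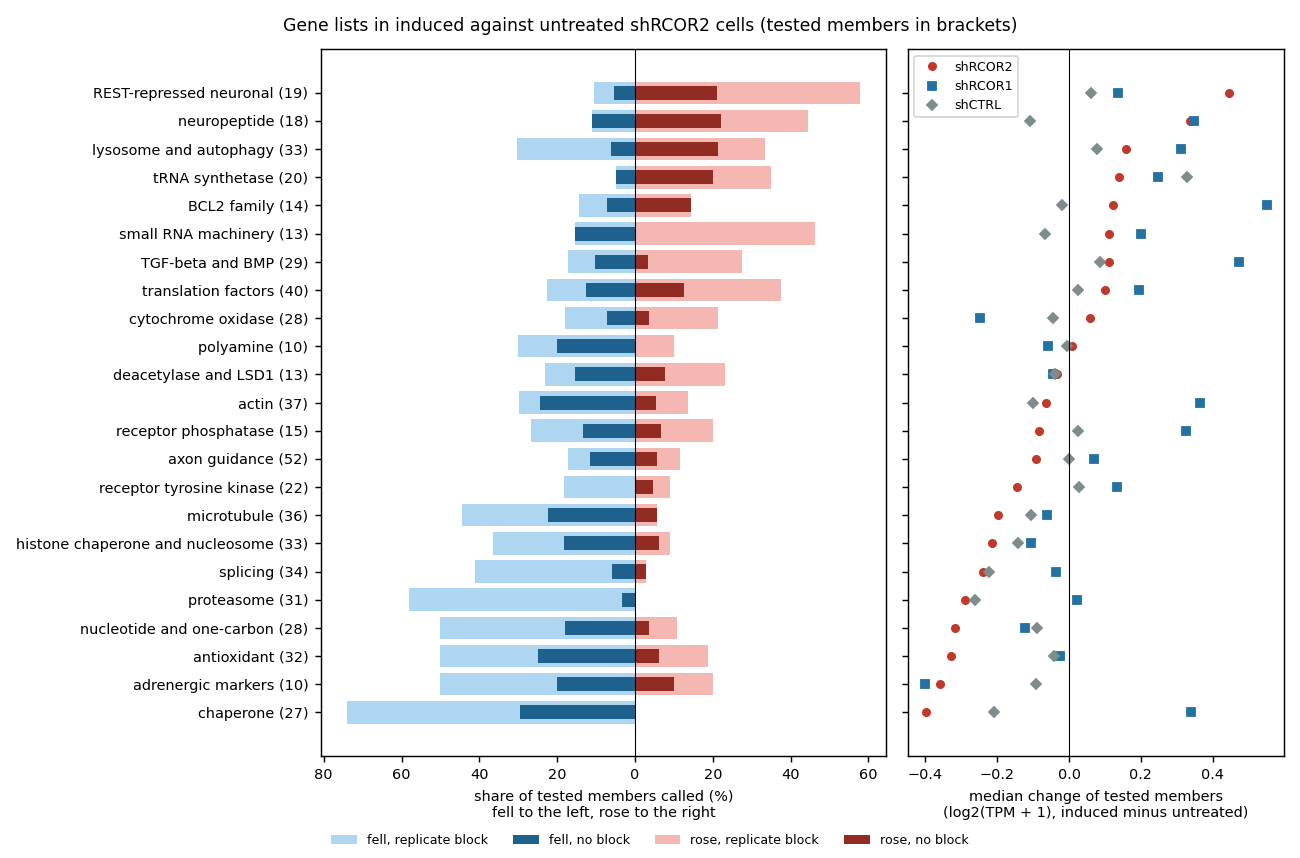
Gene lists in induced against untreated shRCOR2 cells, with the number of tested members in brackets; left, the share of members called (fell to the left in blue, rose to the right in red, dark bars without and pale bars with the replicate block), and right, the median log2(TPM + 1) change in the shRCOR2, shRCOR1 and shCTRL lines. The chaperone list has the lowest shRCOR2 median (−0.40) and the REST-repressed neuronal list the highest (0.44) of the 23 lists shown.

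Neuronal genes known to be held down by REST rose more often than they fell. Of 19 such genes 4 rose and 1 fell (11 and 2 with the block). Over all genes 7.81% rose and 6.47% fell, or 21.4% and 14.8% with the block. The median change of the 19 genes was 0.44, beside 0.14 in shRCOR1 cells and 0.06 in shCTRL cells. L1CAM, a neural adhesion molecule, stood at 149 and 170.2 TPM in induced against 81.4 and 80.2 TPM in untreated cells (0.97 ± 0.18, limma adjusted p = 0.0118). SYN1, a synaptic vesicle protein, stood at 28.97 and 35.1 TPM in induced against 17.3 and 19.5 TPM in untreated cells (0.76 ± 0.16, limma adjusted p = 0.0169). BDNF, a neurotrophin whose gene overlaps BDNF-AS, stood at 9.38 and 9.15 TPM in induced against 5.53 and 6.29 TPM in untreated cells (0.57 ± 0.16, limma adjusted p = 0.0492). None of these 3 was called without any 1 of the 4 libraries (limma adjusted p 0.0551 to 0.225). Relative to shCTRL limma called 0 of the 19 (3 higher and 1 lower with the block, SYN1 among them at 0.00696). SNAP25, a vesicle fusion protein, fell (25.9 and 29.4 TPM in induced against 47.1 and 46.5 TPM in untreated cells, −0.74 ± 0.11, limma adjusted p = 0.00411).

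Among 18 neuropeptide and granin genes tested of 30, limma called 4 rises and 2 falls, or 8 and 2 with the block. The median was 0.34, beside 0.35 in shRCOR1 cells and −0.11 in shCTRL cells. SST, somatostatin, stood at 342 and 272 TPM in induced against 108 and 129 TPM in untreated cells (1.36 ± 0.27, limma adjusted p = 0.0148). The change differed from that in shRCOR1 cells by 1.86 (limma adjusted p = 0.0193). GAL, galanin, stood at 132 and 95.9 TPM in induced against 271 and 241 TPM in untreated cells (−1.18 ± 0.27, limma adjusted p = 0.0247). SCG2, secretogranin II (0.96 ± 0.22), and PENK, proenkephalin (0.63), rose. The calls of SST, SCG2 and GAL ended without any 1 of the 4 libraries (limma adjusted p 0.0559 to 0.155). Of 52 axon guidance genes 3 rose and 6 fell, or 6 and 9 with the block. NRP1, a co-receptor for semaphorins and VEGF, stood at 69.7 and 71.1 TPM in induced against 41.8 and 29.2 TPM in untreated cells (0.99 ± 0.19), and the netrin receptor gene UNC5C rose too (0.54 ± 0.13). PLXND1, another plexin (−1.23 ± 0.34), the ephrin genes EFNA4 (−0.95 ± 0.24), EFNA5 (−0.87) and EFNB2 (−0.66), the semaphorin gene SEMA7A (−0.87 ± 0.14) and the ephrin receptor gene EPHB3 (−0.61) fell. Without 1 of the 4 libraries PLXNB3 kept its call in every fit, UNC5C, PLXND1 and EFNA4 in none (limma adjusted p 0.0704 to 0.227), and NRP1 and SEMA7A in some.

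The signalling and survival lists are read beside 7.81% rises and 6.47% falls over all genes, or 21.4% and 14.8% with the block. Of 15 receptor phosphatases PTPRR rose and PTPRU (−0.63 ± 0.09) and PTPRA (−0.37 ± 0.08) fell, or 3 and 4 with the block. Of 22 receptor tyrosine kinases KDR, a VEGF receptor, rose (1.82) and 0 fell, whereas with the block 2 rose and 4 fell. In the TGF-beta and BMP list ACVR1, a BMP receptor (0.72 ± 0.20), rose. The co-receptor gene TGFBR3 (−0.73), the ligand gene BMP7 (−0.63 ± 0.09) and BMPR1A (−0.37 ± 0.10) fell, of 29 (8 rises and 5 falls with the block). Of 14 BCL2 family genes (2 rises and 2 falls with the block) 2 rose, BAX and BBC3 of the p53 list, and MCL1, a survival factor, fell (75.6 and 72.5 TPM in induced against 146 and 127 TPM in untreated cells, −0.87 ± 0.17, limma adjusted p = 0.0134). In shRCOR1 cells MCL1 rose (0.90), and the 2 changes differed by −1.77 (limma adjusted p = 0.00449). PTPRA, ACVR1, BMPR1A and MCL1 lost their calls without any 1 of the 4 libraries (limma adjusted p 0.0544 to 0.25), and PTPRU and BMP7 kept them.

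Adrenergic identity markers had 1 rise and 2 falls of 10 (2 and 5 with the block). GATA3 stood at 258 and 268 TPM in induced against 208 and 175 TPM in untreated shRCOR2 cells (0.46 ± 0.11, limma adjusted p = 0.0312). This call ended without any 1 of the 4 libraries (limma adjusted p 0.0527 to 0.189), and MYCN, described above, was among the falls. The summed level of the 10 markers was 3847 and 4118 TPM in induced against 6202 and 6131 TPM in untreated cells, a difference to which MYCN contributed most. The sum also fell in shRCOR1 cells, to 5200 and 5083 TPM in induced against 6364 and 6486 TPM in untreated cells. In shCTRL cells it was 6073 and 4619 TPM in induced against 6235 and 5457 TPM in untreated cells. The median change of the list was −0.36, beside −0.40 in shRCOR1 cells and −0.09 in shCTRL cells. In bulk RNA fewer cells of a type and less RNA per cell cannot be told apart. Of 14 markers of other cell types 6 could be tested and 0 were called (1 rise with the block), and their summed level was 42.3 to 54.8 TPM in induced and 37.4 to 81.3 TPM in untreated shRCOR2 cells. Their part in the results was not tested.

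Non-coding genes were seldom called as falls. Of 706 lincRNAs 8.64% rose and 0.992% fell, and of 783 antisense genes 10.98% rose and 0.894% fell, beside 7.81% and 6.47% over all genes and 8.04% and 7.93% of 12889 protein-coding genes. With the block 161 lincRNAs and 206 antisense genes rose and 39 and 36 fell; without 1 of the 4 libraries 11 to 15 lincRNAs and 12 to 25 antisense genes rose. Their median level in untreated cells was 1.80 TPM for lincRNAs and 1.58 TPM for antisense genes, beside 19.2 TPM for protein-coding genes. LINC01518, an intergenic non-coding RNA, stood at 29.4 and 24.3 TPM in induced against 7.06 and 6.90 TPM in untreated cells (1.80 ± 0.26, limma adjusted p = 0.00395). Among the falls were LINC00641 (10.6 and 14.1 TPM in induced against 29.1 and 32.5 TPM in untreated cells, −1.26 ± 0.25), SNHG26, a small nucleolar RNA host gene (−1.37 ± 0.22), and AC092718.4 (−1.20 ± 0.30), which overlaps CENPN on the same strand. LINC01518 kept its call in all 4 leave-one-out fits, AC092718.4 in none (limma adjusted p 0.121 to 0.169), and LINC00641 and SNHG26 in some. The 439 protein-coding genes with a ZNF symbol, a family counted after its values were seen, had 90 rises (20.5%) and 8 falls (1.82%), or 186 and 22 with the block. Their median change was 0.30, beside −0.02 in shCTRL cells. The ZNF median stayed between 0.23 and 0.34 in every alternative run, but without 1 of the 4 libraries only 14 to 25 of them were called as rises. Reads of antisense and host genes may be mixed in these values, since the strand setting of the quantification is not given. Called falls came from transcripts with a lower GC content than called rises (median 45.9% against 49.9%, with 48.6% over all protein-coding genes tested), a description whose part in the calls was not tested.

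**Figure D3:**
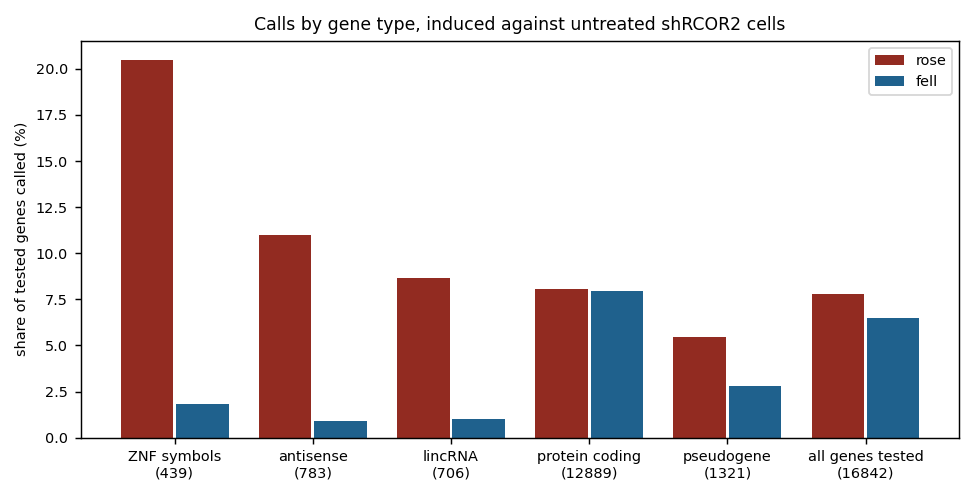
Share of tested genes called as rises (red) and falls (blue) by gene type in induced against untreated shRCOR2 cells, with the number tested in brackets. Rises exceed falls in the ZNF symbols (20.5% against 1.82%), antisense genes and lincRNAs, while the shares of protein-coding genes are close (8.04% and 7.93%).

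A sequence word stood out in the 3′ untranslated regions (3′ UTRs) of the genes that fell. All 16384 words of 7 bases were compared between the longest GENCODE 29 3′ UTRs of 226 protein-coding genes that fell at least 2-fold and those of 10682 uncalled genes, on the transcript strand only. The largest difference was for ATGGCTA, present in 24.3% of the falls and 7.63% of the uncalled genes, which is 55 of 226 and 815 of 10682. Next came AATGGCT, which overlaps it (29.2% and 13.4%), and AAGTTTT (41.6% and 26.2%). Because the word was picked on the same calls, these shares are a description with no test. Smaller falls held it in 14.9% and rises in 3.10% of genes. Upstream of the 3′ UTR, the word was in 16.4% of falls of at least 2-fold, 9.42% of uncalled genes and 4.85% of rises. The difference was thus not confined to 3′ UTRs. Falls of at least 2-fold also had somewhat longer 3′ UTRs (median 1517 bases, against 1383 bases in uncalled genes and 934 bases in rises) with a lower GC content (39.2%, against 42.9% and 44.3%). The shares were 13.2% against 1.97% in 3′ UTRs shorter than 1383 bases and 34.2% against 13.3% in longer ones.

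The sites in genes with large or opposite changes, and the only copy in the RCOR2 transcript, are shown with 11 bases before and 12 after the word, 5′ to 3′ on the transcript strand from the GENCODE transcripts (GRCh38), with the word in capitals.
STMN1 (chromosome 1), base 278 of the 3′ UTR: gtactgggttaATGGCTAgtactgtattgg
TXNRD1 (chromosome 12), base 446 of the 3′ UTR: aaaagcaagtcATGGCTAgagtatccatgc
TXNRD1, base 700 of the 3′ UTR: taggaagggaaATGGCTActtggccagcca
ANP32E (chromosome 1), base 1357 of the 3′ UTR: tgtttccttacATGGCTActaaataaaata
C4orf3 (chromosome 4), base 53 of the 3′ UTR: gaattctgaaaATGGCTAcaaacttcttga
UCHL1 (chromosome 4), base 263 of the 3′ UTR: taacgctttaaATGGCTActttggtttctg
SLC7A5 (chromosome 16), base 2857 of the 3′ UTR: attctgtgttaATGGCTAacctgttacact
RCOR2 (chromosome 11), base 687 of the transcript, in the coding sequence: caaggagaagcATGGCTAcaacattgagca
The RCOR2 transcript of 2604 bases held the word once, its 3′ UTR of 644 bases did not, and the RCOR1 transcript of 5754 bases held none. The RCOR3 transcript also held it once before its 3′ UTR, and RCOR3 was not called. Of the 10 named largest falls 4 held it in the 3′ UTR, and 0 of the 7 protein-coding named largest rises did. COX7A2L, MZT1, HSPB1, PPT1, ACTB and AMMECR1 had no copy there, though HSPB1 had 1 upstream. Among the named list members with a 3′ UTR, 9 of 48 falls and 1 of 33 rises, BDNF, held the word there.

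Over all 12732 protein-coding genes with a 3′ UTR, the 1020 with the word had a median change of −0.13 in shRCOR2 cells, against 0.06 in the 11712 without it. In the lines that the choice of the word did not use, the medians were 0.05 with and 0.03 without the word in shRCOR1 cells and −0.02 with and −0.02 without it in shCTRL cells. Of the genes with the word, 62.5% had a change below 0 in the shRCOR2 line, 43.9% in shRCOR1 cells and 55.6% in shCTRL cells. Of the genes without it, the shares were 43.3%, 45.9% and 54.8% in the same order. Relative to shCTRL, 54 genes with the word were lower and 5 higher, against 142 lower and 108 higher without it. That comparison holds the same shRCOR2 libraries on which the word was picked, so it describes the choice and is no separate support. Falls with the word made up 2 of 8 in the microtubule list, 2 of 9 in the actin list, 2 of 8 among antioxidant genes, 1 of 8 among chaperones, 3 of 6 among histone chaperone and nucleosome genes, 2 of 5 among translation factors, 1 of 5 among nucleotide and one-carbon genes, and the only falls of the BCL2 and REST-repressed lists, MCL1 and SNAP25. None of the 6 axon guidance falls, 3 TGF-beta and BMP falls or the 1 or 2 falls of each other list described here held it, and over all falls the share was 16.98%. The sequence of the hairpin was not used here, and whether it pairs with these sites was not tested.

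**Figure D4:**
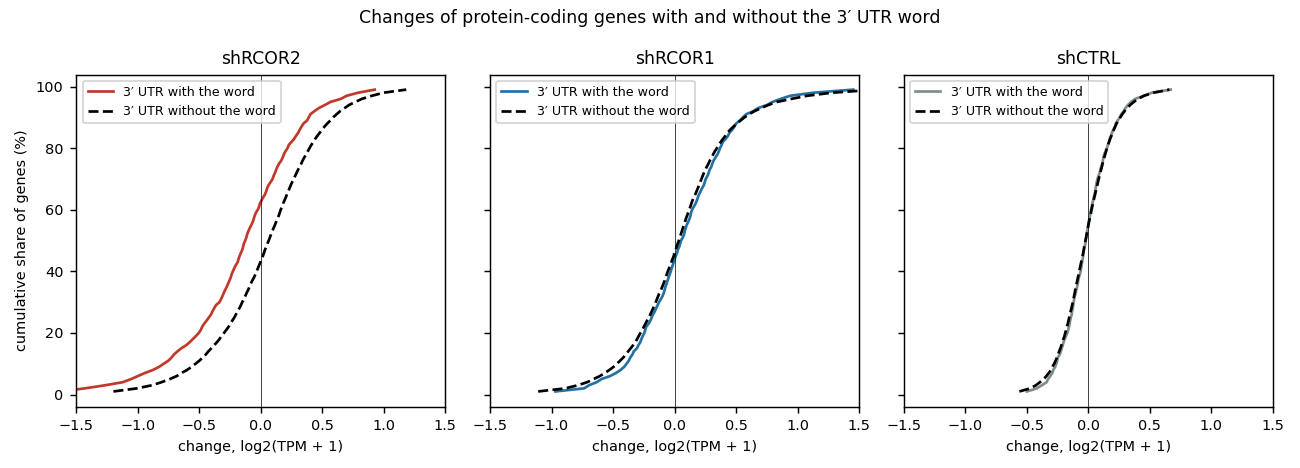
Cumulative share of protein-coding genes by their log2(TPM + 1) change, induced minus untreated, for genes with (solid, coloured) and without (dashed, black) the word in the 3′ UTR, in the shRCOR2, shRCOR1 and shCTRL lines. The curves are apart in shRCOR2 cells (medians −0.13 and 0.06), on which the word was picked, and nearly coincide in the other lines.

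Set against the RCOR1 knockdown, 875 genes changed higher (5.2%) and 1005 lower (5.97%) in shRCOR2 cells by limma, or 2642 and 2483 with the block. Those 1880 calls became 693 to 1132 without any 1 of the 8 libraries, and higher genes were 46.5% of these calls with TPM and 59.9% with FPKM. Over all genes tested, limma called 838 rises and 613 falls in shRCOR1 cells. Among the 2049 genes called in shRCOR2 cells and eligible for naming, 157 were called in both lines with opposite signs. Of these 80 were lower and 77 higher in shRCOR2 cells. The number called in both lines with the same sign is not given here. SLC7A5, a transporter of large amino acids, stood at 45.5 and 46.6 TPM in induced against 119 and 136 TPM in untreated shRCOR2 cells (−1.45 ± 0.20, limma adjusted p = 0.00376). In shRCOR1 cells it stood at 371 and 457 TPM induced against 119.8 and 136 TPM untreated, and in shCTRL cells at 209.9 and 309 TPM induced against 124 and 163 TPM untreated. The induced shRCOR2 libraries were the lowest of the 12. The difference between the 2 knockdown lines was −3.13 (limma adjusted p = 0.00112). PLAT, tissue plasminogen activator, stood at 1.81 and 2.19 TPM in induced against 6.20 and 6.05 TPM in untreated shRCOR2 cells, and at 46.4 and 27.8 TPM in induced against 5.58 and 6.12 TPM in untreated shRCOR1 cells, a difference of −3.68 (limma adjusted p = 0.000873). CNN1, the contractile protein calponin (1.69 and 2.45 TPM in induced against 6.74 and 10.2 TPM in untreated shRCOR2 cells; −2.97, limma adjusted p = 0.0045), and MCAM, a cell adhesion molecule (2.30 and 2.91 TPM in induced against 7.73 and 11.1 TPM in untreated shRCOR2 cells; −2.77, limma adjusted p = 0.00453), were opposite in the same sense. The non-coding gene AC078950.1 was opposite in the other sense, with 6.23 and 11.5 TPM in induced against 2.45 and 2.79 TPM in untreated shRCOR2 cells (2.96, limma adjusted p = 0.00727). Within shRCOR2 cells SLC7A5 kept its call in all 4 leave-one-out fits. CNN1 and MCAM lost theirs without induced replicate 1 or untreated replicate 2 (limma adjusted p 0.0738 to 0.0794). PLAT was called only without induced replicate 2 (0.0488) and AC078950.1 only without induced replicate 1 (0.0465).

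**Figure D5:**
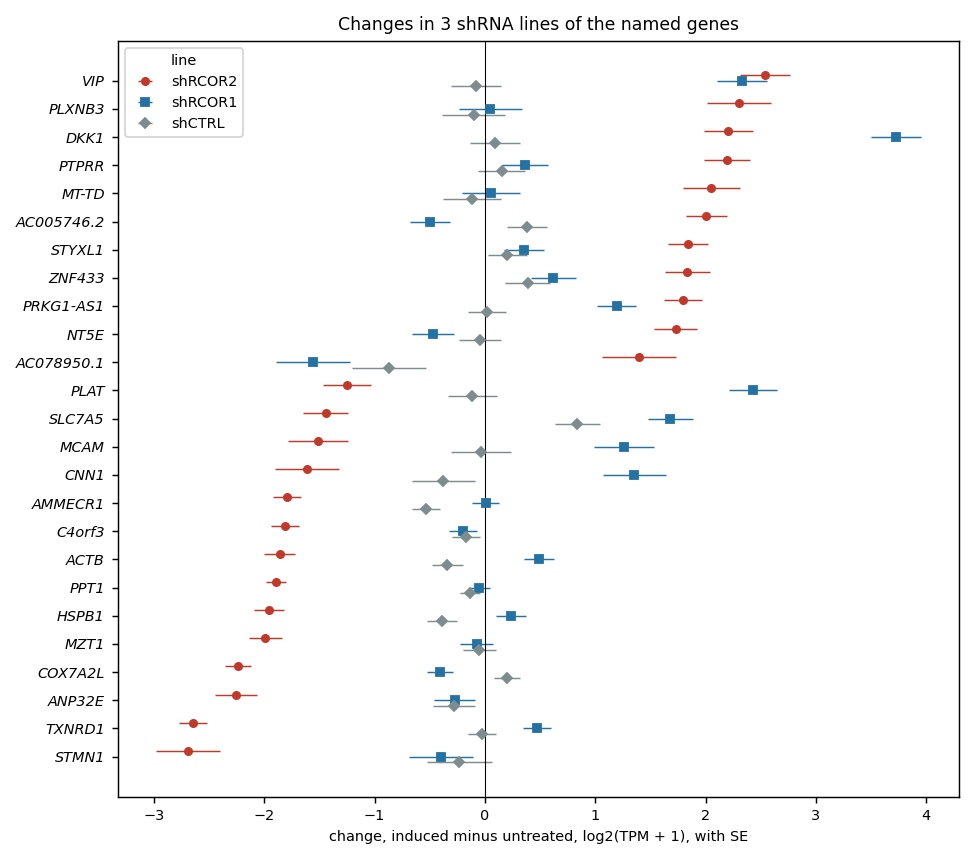
Changes with their SE in the shRCOR2 (red circles), shRCOR1 (blue squares) and shCTRL (grey diamonds) lines of the genes named for the largest changes and of the 5 named for opposite changes in both knockdown lines; the horizontal axis is log2(TPM + 1), induced minus untreated. PLAT, SLC7A5, MCAM and CNN1 lie left of 0 in shRCOR2 and right of 0 in shRCOR1 cells, while VIP and DKK1 lie right of 0 in both.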

How the data were processed

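RNA of Kelly cells was read in 12 directional NEBNext Ultra II libraries, per the labels' protocols. Trim Galore 0.6.7, HISAT2 2.2.1, StringTie 2.1.7 and the builds GRCh38 and hg38 are named, per the submitters' processing notes. Strand setting, annotation release and treatment of multiply aligned reads were not given in the sources used here. The deposited TPM sum to an equal total in every library, so they measure shares of the RNA and not amounts per cell. The deposited FPKM were an alternative scale, and the deposited coverage signal gave relative depth, 1 to 2.14 times the shallowest library. Values were summed per gene identifier (60660), of which 58429 have a type in GENCODE 29.

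The 16842 genes that reached 1 TPM in 2 or more libraries were fitted as log2(TPM + 1), with a mean for each of the 6 groups and the trend option of limma 3.58.1 (R 4.3.3). A call is an adjusted p (Benjamini-Hochberg, over all 16842 genes) under 0.05. The fit was tested on simulated data. Tables and plots used Python 3.11.15, numpy 2.4.6, pandas 2.3.3 and matplotlib 3.10.9. The members, lists and tests were chosen with earlier results of these data known, so no list count is independent support; the scan of 3′ UTR words was added after seeing the data. Deviations of same-numbered libraries correlated in all 15 pairs of groups (0.372 to 0.750; 0.480 within the shRCOR2 line), so the numbers pair the samples, and blocked values are given beside printed calls that changed and list counts that moved by over 1.5 times.

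Genes were named by rule, among called genes outside the p53, glycolysis and sterol lists with a mean TPM of at least 5 in the higher group. The rule took the 10 largest rises and 10 largest falls also called relative to shCTRL, the 5 largest gains and losses in TPM, the 5 most abundant falls of at least 2-fold, up to 3 rises and 3 falls per list, 3 rises and 3 falls among non-coding genes (mean TPM of at least 2), and the 5 most opposite to shRCOR1. Other list members are named with values after their values were seen. Alternatives were FPKM, median-of-ratios scaling, mitochondrial genes left out, a pseudocount of 0.1, a TPM of at least 5, no filter, the compared groups alone, the replicate block and each library left out. The values of 1 called list member are not reported here.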

Additional observations from a re-analysis of the deposited data

Results flagged for a closer look

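The following results were picked because the shRCOR2 change differed from that of another line by a test of the difference itself. In limma 352 genes differed from the shCTRL change and 1880 from the shRCOR1 change. Of 67 named list members outside the largest and the opposite changes, 19 differed from shCTRL and 41 from shRCOR1. Over all genes 0.891% were higher and 1.2% lower than shCTRL, and 5.2% higher and 5.97% lower than shRCOR1. The list members, like the genes below, were named for called shRCOR2 changes, which both differences contain. Their counts and differences are therefore raised by the choice.

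Relative to the shRCOR1 change (shRCOR2 minus shRCOR1, log2 scale, limma adjusted p below 0.05 for each), the named rises differed by 2.26 (PLXNB3), −1.52 (DKK1), 1.83 (PTPRR), 2.00 (MT-TD), 2.51 (AC005746.2), 1.49 (STYXL1), 1.22 (ZNF433) and 2.197 (NT5E). The named falls differed by −2.29 (STMN1), −3.12 (TXNRD1), −1.98 (ANP32E), −1.84 (COX7A2L), −1.92 (MZT1), −2.19 (HSPB1), −1.84 (PPT1), −2.35 (ACTB), −1.61 (C4orf3) and −1.80 (AMMECR1). The genes named for opposite changes differed by −2.97 (CNN1), −3.13 (SLC7A5), 2.96 (AC078950.1), −2.77 (MCAM) and −3.68 (PLAT). DKK1 was the named rise that rose less in shRCOR2 than in shRCOR1 cells.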

How the results depend on the processing

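The count of genes called between induced and untreated shRCOR2 cells (2406) was 6100 with the replicate block and 493 to 744 without 1 library; relative to shCTRL it was 352, with 2481 in the replicate block, 8 in a fit of the compared groups alone and 19 to 321 without 1 library; relative to shRCOR1 it was 1880, with 5125 in the replicate block and 693 to 1132 without 1 library. Fits without a library leave 1 in its group, which is assumed to vary like the others. They use no block, so the replicate numbers are unbalanced in them. Untreated shRCOR2 against untreated shCTRL had 0 calls, with 5 under no filter and 1 in the compared groups alone. The fall of RCOR2 ran from −1.52 to −1.30 and was called in every alternative. Among named genes no direction reversed. In alternatives that kept both libraries of every compared group, 782 recomputed calls stood and 77 were lost, 0 of them with the replicate block. Calls were also lost without 1 library. The share of 2-fold falls with the 3′ UTR word ran from 20.98% to 30.1%, and of uncalled genes from 7.20% to 8.03%. The causes were not tested. Depth is known only relative to the shallowest library.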
